A study of Mus musculus with 6 samples.

Results

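The genes described here are 32 germline and meiosis genes, chosen by name from the 24453 gene symbols that every count file of the series holds, and all 32 were found. They were measured by RNA sequencing in epidermal cells sorted from dorsal skin at postnatal day 0, in mice, with 3 libraries of genotype Control and 3 of genotype Ring1a-/- Ring1b-/-. The sort took EpCAM(+), Sca1(+) and α6-integrin(high) cells, a gate that selects interfollicular epidermis and enriches for its progenitors. Ring1a, encoded by Ring1, and Ring1b, encoded by Rnf2, are the ubiquitin ligases of Polycomb repressive complex 1 (PRC1). The complex marks histone H2A and helps to keep developmental genes silent. The labels give neither the promoter of any Cre nor the alleles that the control mice carried, and whether each library is a different mouse is not stated. The spread behind the p-values is that among these samples and could be technical. C1, C2 and C3 stand for control replicates 1 to 3 and K1, K2 and K3 for knockout replicates 1 to 3, and values of a group are always listed in that order.

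Germ cells run programmes that somatic tissues keep off. The piRNA pathway loads small RNAs onto Piwi proteins in cytoplasmic germ granules and silences transposons, and meiosis needs proteins that break, pair and hold together homologous chromosomes. In somatic cells many of these genes are known to be silenced by DNA methylation of CpG-rich promoters and by a variant PRC1 that contains the DNA-binding proteins E2f6, Mga and Max. E2f6 recognises E2F sites and Mga with Max recognises E-boxes. The comparison of knockout with control epidermis shows how the RNA of such genes differed where both Ring1 ligases were targeted.

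Promoter windows of 300 bases, 250 before to 50 from the start of transcription, were available for 28 of the 32 genes (RefSeq, GRCm38.p6), and 22 of these starts lie within 100 bases of the 5′ end of the GENCODE M21 gene. The E2F site TTCCCGC, searched on both strands, was found in 10 of the 28 windows (35.7%), against 6.11% of 17405 windows of all genes. The E-box CACGTG, which reads the same on both strands, was found in 13 (46.4%), against 8.12% of all windows. Both motifs occurred in 5 windows (17.9%, against 0.592%), those of Ddx4, Hormad1, Sycp3, Stag3 and Slc25a31. In the windows of all tested genes the shares were 8.27% (E2F site), 9.89% (E-box) and 0.775% (both). In those of 39 of the other germline genes described below they were 15.4%, 20.5% and 5.13%. No E2F site overlapped an E-box in the 28 windows. The ratio of observed to expected CpG had a median of 0.736 in the windows of these genes and 0.584 in all windows, but 0.747 in those of all tested genes and 0.606 in those of 39 of the other germline genes described below. These matches describe the letters of the windows and are no evidence of binding.

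The 250 bases before the start are shown, chosen after their values were seen except for Mei1, for 3 genes with both motifs there (Ddx4, Hormad1 and Sycp3), for Taf7l, whose adjusted p came nearest to the threshold without passing it, and for Mei1, which rose. Capitals mark E2F sites and E-boxes, and each line reads 5′ to 3′ on the strand of the gene.
Ddx4, chr13:112652311-112652560, minus strand: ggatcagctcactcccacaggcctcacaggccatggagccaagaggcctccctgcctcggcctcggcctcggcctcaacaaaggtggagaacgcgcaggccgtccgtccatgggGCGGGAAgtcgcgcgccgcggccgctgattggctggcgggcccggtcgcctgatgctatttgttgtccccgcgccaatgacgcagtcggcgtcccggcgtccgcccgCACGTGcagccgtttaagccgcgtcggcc
Hormad1, chr3:95559427-95559676, plus strand: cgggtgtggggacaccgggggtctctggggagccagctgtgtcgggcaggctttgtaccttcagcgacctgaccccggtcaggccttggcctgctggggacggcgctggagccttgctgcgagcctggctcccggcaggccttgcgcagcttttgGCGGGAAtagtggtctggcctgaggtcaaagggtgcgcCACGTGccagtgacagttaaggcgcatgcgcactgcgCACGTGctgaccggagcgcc
Sycp3, chr10:88459337-88459586, plus strand: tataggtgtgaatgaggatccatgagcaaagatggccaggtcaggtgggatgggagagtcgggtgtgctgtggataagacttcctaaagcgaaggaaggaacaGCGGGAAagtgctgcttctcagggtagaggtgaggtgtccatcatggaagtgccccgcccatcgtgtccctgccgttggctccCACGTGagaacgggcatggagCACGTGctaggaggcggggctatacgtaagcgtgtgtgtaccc
Taf7l, chrX:134476491-134476740, minus strand: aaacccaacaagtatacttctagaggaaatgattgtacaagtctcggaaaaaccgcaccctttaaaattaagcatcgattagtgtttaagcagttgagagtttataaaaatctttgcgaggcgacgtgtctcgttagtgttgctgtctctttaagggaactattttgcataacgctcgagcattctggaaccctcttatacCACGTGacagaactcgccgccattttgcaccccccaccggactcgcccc
Mei1, chr15:82082226-82082475, plus strand: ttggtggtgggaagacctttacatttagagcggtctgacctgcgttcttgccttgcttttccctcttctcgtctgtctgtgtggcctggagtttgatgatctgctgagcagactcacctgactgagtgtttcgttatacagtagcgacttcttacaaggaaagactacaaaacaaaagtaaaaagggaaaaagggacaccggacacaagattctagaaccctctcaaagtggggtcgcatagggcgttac
Ddx4 has an E2F site that begins 136 bases and an E-box that begins 29 bases before the start. Hormad1 has an E2F site at 95 and E-boxes at 57 and 20 bases, and Sycp3 an E2F site at 147 and E-boxes at 64 and 43 bases. Taf7l has an E-box at 49 bases. The Mei1 window holds neither motif, but the RefSeq start it is taken from lies 12480 bases from the 5′ end of the GENCODE gene, so other starts of Mei1 were not searched.

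**Figure D1:**
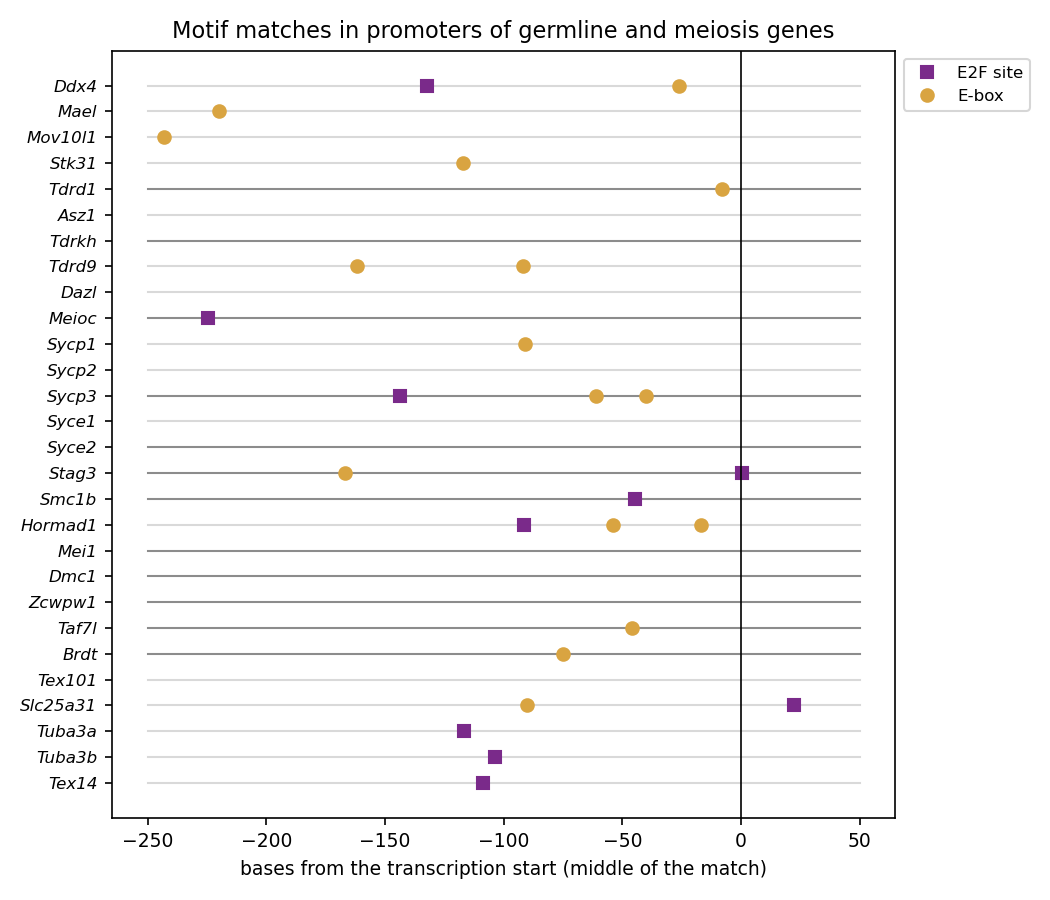
Positions of E2F sites (squares) and E-boxes (circles) in the 28 promoter windows, in bases from the start of transcription (vertical line at 0); darker lines are genes with enough counts to be tested. Of the 28 windows 18 hold at least 1 of the motifs, 7 of 12 among the tested and 11 of 16 among the untested genes.

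Library totals ran from 18951665 to 31187270 counts, and the limit that 0 counts allow, 3 counts, corresponds to 0.0975 to 0.154 CPM, the read count scaled to library size by TMM. The Ring1 gene did not separate the labelled groups, with 30.9, 17.1 and 3.90 CPM in the control and 1.66, 5.20 and 14.2 CPM in the knockout libraries. The library labelled K3 thus held more Ring1 than the one labelled C3, and calls are also given with replicates 1 and 2 alone. Over all tested genes, the axis of largest spread (first principal component, 56.2% of the variance) separated the libraries as labelled. C1, C2 and C3 lay at -90.9, -69.2 and -75.6 on this axis, and K1, K2 and K3 at 100, 73.6 and 62.0. Xist stood at 10.5, 6.91 and 1757 CPM in the control and 6133, 4736 and 4.48 CPM in the knockout libraries, and the Y-linked Ddx3y at 91.2, 102 and 59.7 against 0.0346, 0.206 and 76.2 CPM. High Xist without Ddx3y was thus found in K1 and K2 only, high Ddx3y with little Xist in C1, C2 and K3, and both in C3. The sexes were therefore unevenly spread over the groups, and with replicates 1 and 2 alone sex and genotype cannot be told apart. Rnf2 had 43.2 to 63.2 CPM in the control and 55.4 to 64.1 CPM in the knockout libraries, but reads from outside a deleted part are counted too, so these values check no label. Summed over 9 epidermal marker genes, among them Krt5, Krt14 and Trp63, the libraries held 32233 to 46948 CPM in the control and 27615 to 31376 CPM in the knockout group. Of these 9 genes, all tested, Trp63 and Col17a1 fell and 7 did not pass. Of 7 hair follicle markers, all tested, Krt25 and Krt71 fell and 5 did not pass, while the list summed to 703 to 796 CPM in the control and 935 to 1470 CPM in the knockout libraries. Of 6 Merkel cell markers the 3 tested, Isl1, Sox2 and Krt18, rose. The summed Merkel list went from 0.612 to 2.63 CPM in the control to 27.6 to 77.0 CPM in the knockout libraries. Krt18 alone held 67.5, 25.4 and 19.8 CPM in K1, K2 and K3. Krt20 and Krt8 overlapped between the groups and were not tested. The defining marker Atoh1 had too few counts for a test, with 1, 0 and 10 in the control and 0, 3 and 3 in the knockout libraries. The part of these marker lists in the results below was not tested. The 6 melanocyte markers summed to 12.5 to 15.0 CPM in the control and 16.1 to 25.6 CPM in the knockout libraries, and none of the 4 tested was called. Of immune, fibroblast, endothelial and Schwann cell markers 4, 6, 5 and 4 were tested and 0 called. Beside these marker counts, edgeR called 7.17% of all tested genes higher and 2.98% lower.

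Most of the germline programme had little or no RNA in either group. The genes without a count, 5 in all, had none in any of the 6 libraries: Mov10l1 (a piRNA pathway helicase), Hormad1 (a protein of unsynapsed meiotic chromosome axes), Syce1 (a central element of the synaptonemal complex), Tex11 (an X-linked meiotic crossover protein) and Tuba3b (a testis tubulin). A further 13 genes had some counts but too few to be tested, and 14 passed the count filter. Among the 14, Mei1 was called higher and 0 lower by edgeR at an adjusted p under 0.05, where 10.2% of all 14890 tested genes were called, 7.17% higher and 2.98% lower. At an unadjusted p under 0.05 there were 4 higher and 1 lower, against 14.5% and 9.86% of all genes. DESeq2 called 3 higher and 1 lower, against 11.0% and 6.02% of all genes, and limma-voom 1 higher and 0 lower, against 7.35% and 3.22%. The 1 higher gene of 14 is near the background. The 14 had a median log2 fold change of 0.34, against 0.00 for all tested genes, and the median of the genes tested without C3 was -0.05 and with Xist as a covariate 0.71. Silent genes pass the filter only if they rise, so these figures hold for the 14 and not for the 32. Without a count filter 27 of the 32 could be tested, with a median of 0.12, and Mei1 alone was called. In that fit 6.06% of 19884 genes were called higher. With replicates 1 and 2 alone none was called, where 354 of 14914 tested genes were called higher (2.37%) and 85 lower.

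**Figure D2:**
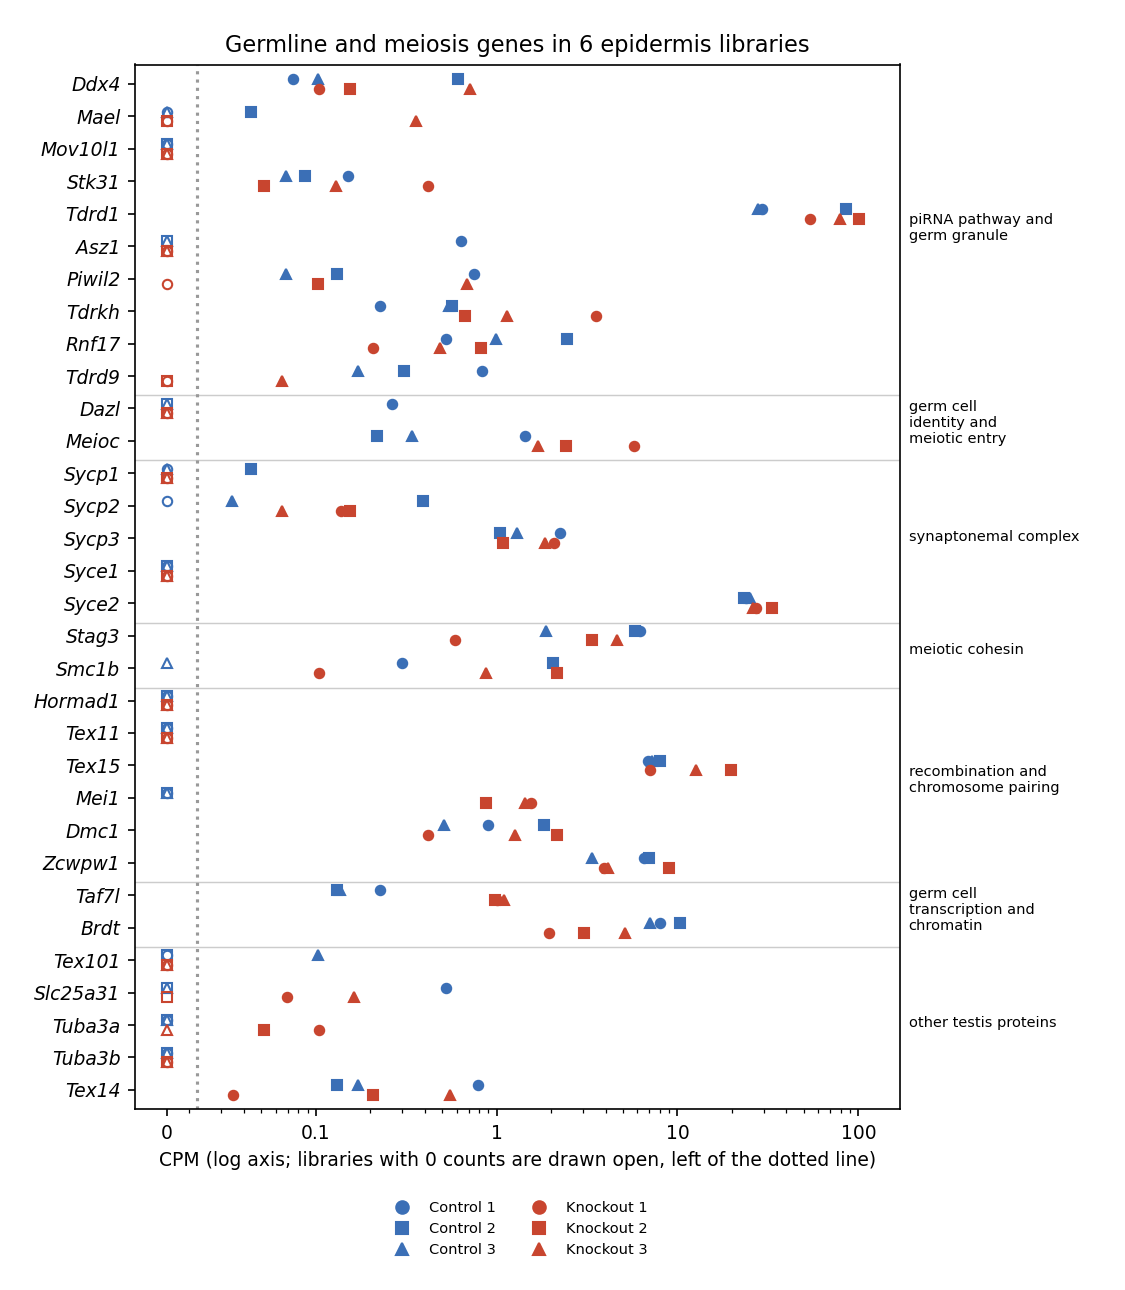
CPM of each of the 32 genes in each library (log axis; blue control, red knockout, open symbols at the left for 0 counts), grouped by role. The 18 untested genes lie at or under 0.825 CPM in every library, and Tdrd1 and Syce2 lie above 20 CPM in all 6 libraries.

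Germ granule and piRNA genes stayed low, with Tdrd1 as the exception. Ddx4 (mouse vasa homologue), the RNA helicase that defines germ cells, had 2, 14 and 3 counts in the control and 3, 3 and 22 in the knockout libraries. Mael (maelstrom), needed for transposon silencing, had 0, 1 and 0 counts in the control and 0, 0 and 11 in the knockout libraries. In both genes a single library of each group held most of the reads, and the groups overlapped. Piwil2, a Piwi protein of fetal and adult testis, had 20, 3 and 2 counts in the control and 0, 2 and 21 in the knockout libraries. Stk31 (a Tudor and kinase domain protein of testis) had 4, 2 and 2 against 12, 1 and 4 counts. Asz1, a mitochondria-linked germ granule protein, had 17 counts in C1 and 0 in the other 5 libraries. For Asz1 the knockout level was 5.69-fold lower when 3 counts were taken for that group, but all its counts came from 1 library. Without a count filter its adjusted p was 0.280 (edgeR). None of these genes had enough counts for the test.

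Tdrd9 and Rnf17 had lower counts in the knockout libraries, and neither passed. Tdrd9, a helicase of the nuclear piRNA pathway, had 22, 7 and 5 counts in the control and 0, 0 and 2 in the knockout libraries. The groups did not overlap, but Tdrd9 was below the count filter, and without a filter its adjusted p was 0.204 (edgeR). Rnf17, a Tudor domain protein of male germ cells, had 14, 56 and 29 counts in the control and 6, 16 and 15 in the knockout libraries (log2 fold change -1.39, edgeR adjusted p = 0.373). Its groups overlapped, since K2 lay above C1 in CPM.

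Tdrkh, a Tudor and KH domain protein that helps to trim piRNAs, had 6, 13 and 16 counts in the control and 102, 13 and 35 in the knockout libraries. In CPM every knockout library lay above every control library (0.225 to 0.568 against 0.669 to 3.53), but the lowest knockout and highest control values were close. The log2 fold change of 1.99 had a 95% interval of 0.07 to 3.91 and did not pass (edgeR adjusted p = 0.191). Without K1 it was 1.02 and with replicates 2 and 3 alone 0.70 (edgeR adjusted p = 0.516 and 0.609). Exons of Tdrkh share 2255 bases with the antisense gene Oaz3, and whether strand was used in counting is not stated in the labels. Oaz3 itself had at most 0.450 CPM in a library.

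Tdrd1, the Tudor domain scaffold of the germ granule, was the most counted of the 32 genes in both groups. It had 29.3, 85.7 and 27.9 CPM in the control and 53.9, 101 and 79.0 CPM in the knockout libraries. C2 lay within the knockout range, and the log2 fold change of 0.71 (95% interval -0.30 to 1.72) did not pass (edgeR adjusted p = 0.375). Without C2 it was 1.44 and passed (edgeR adjusted p = 0.0314), so C2 decides this call. Without C3 it was 0.44 and with replicates 1 and 2 alone 0.42 (edgeR adjusted p = 0.676 and 0.770). Per kilobase of exon Tdrd1 stood at 8.76 ± 6.05 RPKM (SD, n = 3) in the control and 14.3 ± 4.33 RPKM in the knockout libraries, on a scale computed from the CPM and the exon length.

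Of the genes for germ cell identity and entry into meiosis, Dazl had counts in 1 library and Meioc in all 6. Dazl, the RNA-binding protein that licenses germ cells for gametogenesis, had 7 counts in C1 and 0 in the other 5 libraries. Taking 3 counts for the knockout group gives a 2.34-fold lower level, but all its counts came from 1 library. Without a count filter its adjusted p was 0.389 (edgeR). Meioc, which sustains meiotic prophase through RNA stability, had 38, 5 and 10 counts in the control and 165, 47 and 52 in the knockout libraries. Its groups did not overlap in CPM (0.219 to 1.43 against 1.69 to 5.71), and the highest value of each group came from replicate 1. The log2 fold change of 2.30 (95% interval 0.36 to 4.23) did not pass (edgeR adjusted p = 0.137). Meioc was called without C1 (3.51, edgeR adjusted p = 0.0494), with replicates 2 and 3 alone (2.84, 0.0405) and by DESeq2 (adjusted p = 0.0451). It was lower and not called without K1 (1.62, edgeR adjusted p = 0.330) and without C2 (1.89, 0.273), and not called with replicates 1 and 2 alone (2.28, 0.346) or with Xist as a covariate (2.04, 0.375).

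The synaptonemal complex, the zipper between paired homologues, was represented by single parts. Sycp1, its transverse filament, had 1 count in C2 and 0 elsewhere, and Sycp2, a protein of its lateral element, had 0, 9 and 1 counts in the control and 4, 3 and 2 in the knockout libraries. Sycp3, the partner of Sycp2 in the lateral element, had 60, 24 and 38 counts in the control and 60, 21 and 57 in the knockout libraries (log2 fold change 0.13, 95% interval -1.25 to 1.499; edgeR adjusted p = 0.927). Its exons share 660 bases with the antisense gene Chpt1, which was expressed at 5.78 to 9.58 CPM, so some of its reads may belong there. Syce2, a central element protein, was detected in every library, at 23.8, 23.3 and 25.0 CPM in the control and 27.0, 33.4 and 26.03 CPM in the knockout libraries. All knockout values lay above the control values by a small margin, with a log2 fold change of 0.26 (95% interval -0.20 to 0.72; edgeR adjusted p = 0.476). Per kilobase Syce2 had the highest control mean of the 32 genes, 12.2 ± 0.467 RPKM (SD, n = 3), and its difference from Tdrd1 lay within the spread of Tdrd1.

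The meiosis-specific cohesin subunits Stag3 and Smc1b did not change by the test. Stag3 had 166, 134 and 55 counts in the control and 17, 65 and 142 in the knockout libraries. The lowest control library and the highest knockout library were both of replicate 3, and with replicates 2 and 3 alone its log2 fold change was 0.05 instead of -0.71. Smc1b varied most among the tested genes, with 8, 47 and 0 counts in the control and 3, 42 and 27 in the knockout libraries, and its interval of -2.90 to 3.72 (log2) leaves a wide range of differences possible.

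Mei1 rose from no detected RNA. Mei1, which is required for the DNA breaks that start meiotic recombination (chromosome 15, 82069996 to 82126814, plus strand, GRCm38), had 0 counts in every control library and 45, 17 and 44 in the knockout libraries. In CPM the knockout libraries stood at 1.56, 0.875 and 1.43. Taking 3 counts over the whole control group as the limit, Mei1 was at least 35.2-fold higher (edgeR adjusted p = 0.0127, higher in 3 of 3 libraries). The level remained low, at 0.272 ± 0.0765 RPKM (SD, n = 3). Leaving out any 1 library kept the call (edgeR adjusted p = 0.0298 to 0.0472), while with replicates 1 and 2 alone it was lost (edgeR adjusted p = 0.0993). With Xist as a covariate it held (edgeR adjusted p = 0.0444). In bulk RNA a change in the number of cells of a type and a change in RNA per cell cannot be told apart. Around Mei1, within 100 kb, none of the 6 other tested genes was called, where 10.2% of all tested genes were. Its downstream neighbour Ccdc134 had a log2 fold change of 0.61 and the next gene, Srebf2, of 0.44 (edgeR adjusted p = 0.252 and 0.289).

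The other recombination and pairing genes did not pass. Tex15, a testis protein known for piRNA-directed silencing and meiotic repair, had 183, 182 and 210 counts in the control and 204, 382 and 389 in the knockout libraries. In CPM K1 (7.06) lay within the control values (6.86 to 7.95), while K2 and K3 reached 19.7 and 12.6, and the log2 fold change of 0.84 had an interval of -0.04 to 1.71 (edgeR adjusted p = 0.227). With replicates 2 and 3 alone Tex15 was called (1.09, edgeR adjusted p = 0.0416). Without K2 it was 0.43 (edgeR adjusted p = 0.612), and with replicates 1 and 2 alone 0.84 (0.540). Dmc1, the meiotic recombinase, had 24, 42 and 15 counts in the control and 12, 42 and 39 in the knockout libraries. Zcwpw1, a reader of the histone marks left by Prdm9, had 173, 159 and 98 against 113, 175 and 127 counts (log2 fold change 0.02, interval -1.06 to 1.10; edgeR adjusted p = 0.988). For Dmc1 and Zcwpw1 the groups overlapped widely. Zcwpw1 shares 468 exonic bases with the antisense gene Pilra, which had at most 0.437 CPM.

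Statistics for Taf7l, Meioc, Tdrkh, Sycp3, Rnf17, Stag3 and Smc1b are given beyond the rule for named genes, a choice made after their values were seen. The pair of germ cell transcription regulators lay apart between the groups in opposite directions, and neither passed. Taf7l, the X-linked germ cell form of a TFIID subunit (chromosome X, 134460118 to 134476490, minus strand), had 6, 3 and 4 counts in the control and 29, 19 and 34 in the knockout libraries. The CPM values were close within each group, 0.164 ± 0.0527 in the control and 1.03 ± 0.0668 in the knockout libraries (SD, n = 3), and did not overlap. The log2 fold change was 2.61 (95% interval 0.88 to 4.34; edgeR adjusted p = 0.0655). Taf7l was called by DESeq2 (adjusted p = 0.0346) and after correction for GC content and length (edgeR adjusted p = 0.0482). It was not called with Xist as a covariate (2.69, edgeR adjusted p = 0.146), with replicates 1 and 2 alone (2.43, 0.392) or without any 1 library (0.107 to 0.226). Brdt, the testis bromodomain protein that reads acetylated histones, had 213, 236 and 205 counts in the control and 56, 59 and 158 in the knockout libraries. In CPM it stood at 7.99, 10.3 and 7.01 against 1.94, 3.04 and 5.13, all 3 knockout values below all 3 control values. The log2 fold change of -1.32 (95% interval -2.32 to -0.32) did not pass with edgeR (adjusted p = 0.0989) and passed with DESeq2 (adjusted p = 0.0279). Without any 1 library it did not pass (edgeR adjusted p = 0.0709 to 0.247), nor with replicates 1 and 2 alone (0.153).

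Control and knockout CPM were fully separated for 5 of the 14 tested genes with higher knockout values (Mei1, Taf7l, Meioc, Tdrkh and Syce2) and for 1 with lower values (Brdt). Among all tested genes 17.6% were so separated in the higher and 14.8% in the lower direction. Silent genes enter the 14 only if they rise, as Mei1 did. Taf7l (6, 3 and 4 control counts) and Meioc (38, 5 and 10) also passed the filter through their knockout counts. Tdrd9, separated in the lower direction, was below the count filter and is not among the 14. The counts of 5 and 1 thus give no balance of directions for the whole list. Of the 6 separated genes among the 14, Taf7l and Brdt carry an E-box and Meioc an E2F site in their windows, while Mei1, Tdrkh and Syce2 carry neither motif. The Mei1 and Meioc windows lie 12480 and 1869 bases from the 5′ end of their GENCODE genes, so other starts were not searched. Of the 12 windows of tested genes 7 hold at least 1 of the motifs. Of the 5 genes with both motifs only Sycp3 and Stag3 could be tested, and neither was called, where 10.2% of all tested genes were called. Hormad1 had no count, and Ddx4 and Slc25a31 had too few for the test. Sycp3 and Stag3 averaged 1.53 and 4.66 CPM in the control libraries.

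**Figure D3:**
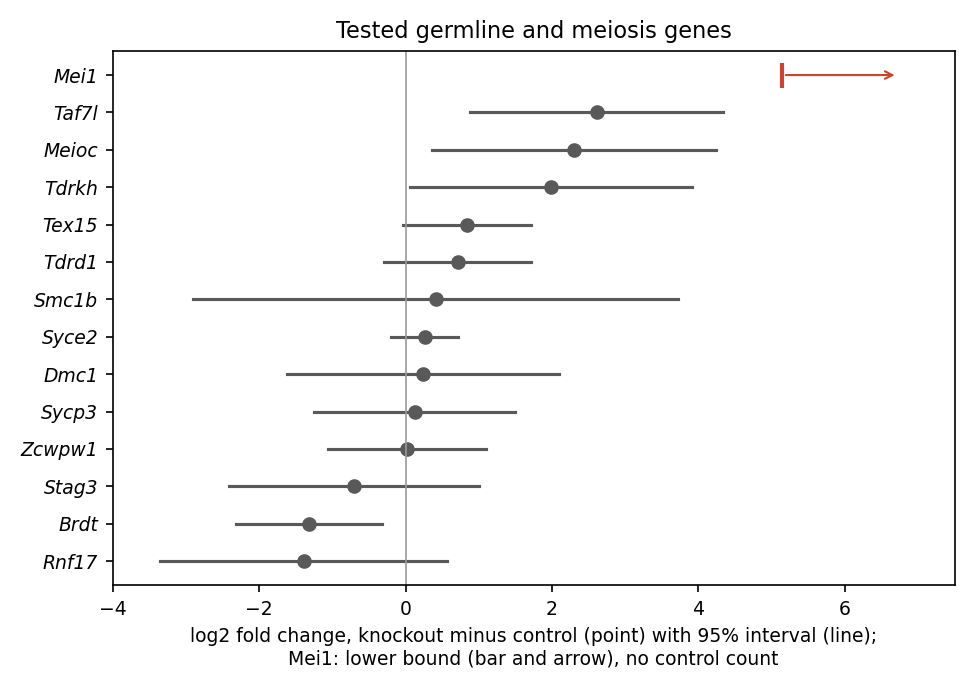
Log2 fold change of the 14 tested genes (points) with 95% intervals (lines); for Mei1, without a control count, the bar and arrow give the lower bound of 5.14. The intervals of Taf7l, Meioc, Tdrkh and Brdt lie off 0 before adjustment over all genes.

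**Figure D4:**
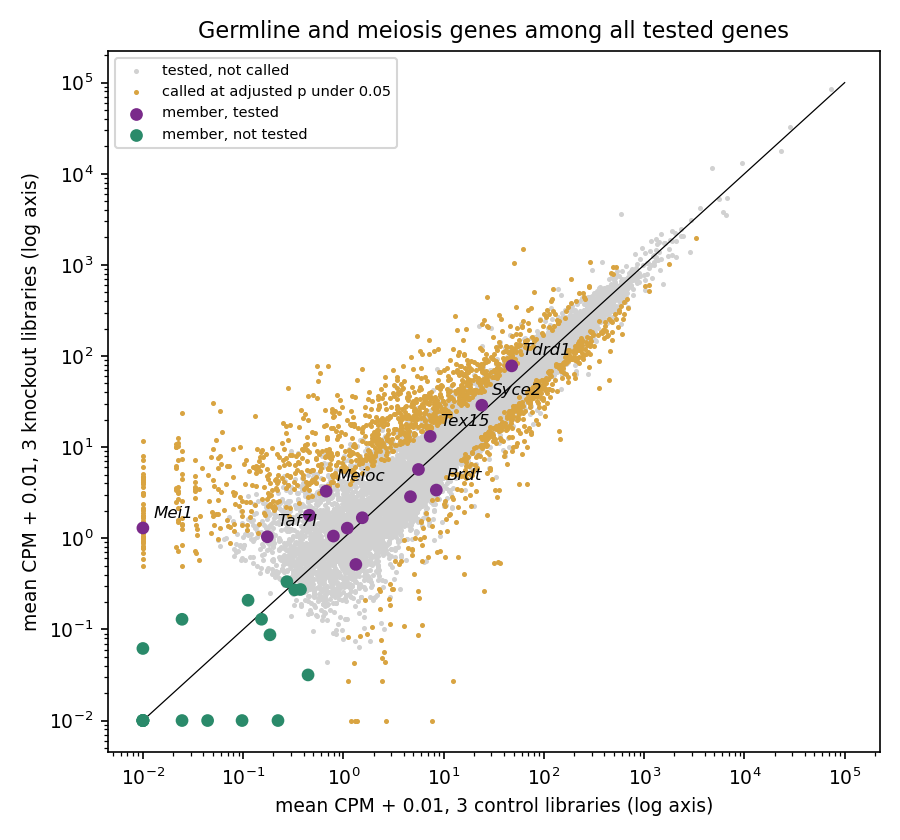
Mean CPM + 0.01 of the control libraries (horizontal) against the knockout libraries (vertical), both log axes, for all 14890 tested genes and the 32 germline and meiosis genes (large points). Mei1 lies among the called genes at the left edge, while most of the large points lie near the diagonal or at the lower left.

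The remaining testis genes stayed near the floor. Tex101, a surface protein of germ cells, had 3 counts in C3 and 0 elsewhere. Slc25a31, the testis form of the mitochondrial ADP/ATP carrier, had 14, 0 and 0 counts in the control and 2, 0 and 5 in the knockout libraries. Tuba3a, a testis tubulin nearly identical to Tuba3b, had 3, 1 and 0 counts in the knockout libraries and 0 in the control. Taking 3 counts for the control group gives a 1.33-fold higher level, with the knockout counts taken as exact. Without a count filter its adjusted p was 0.442 (edgeR). Reads of Tuba3a and Tuba3b may be split or lost in counting. Tex14, which keeps the intercellular bridges of germ cells open, had 21, 3 and 5 counts in the control and 1, 4 and 17 in the knockout libraries. Summed over the 18 untested genes, the control libraries held 107, 40 and 21 counts, against 25, 14 and 84 for the knockout. The highest sums, in C1 and K3, lie in different groups.

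A list of 49 other germline and meiosis genes was also mostly low or did not pass, with 4 exceptions. Of these, 10 had no count in any library, among them Stra8, the retinoic acid target that starts meiosis, and 22 were tested. Zar1, Tdrd5 and Cpeb1 rose, Mnd1 fell, and 18 did not pass, beside the 7.17% and 2.98% of all genes. Zar1, Tdrd5 and Cpeb1 passed the count filter through their knockout counts, so these calls describe the 22 and not the 49. The median log2 fold change of the 22 was 0.00. Among the untested genes, Nanos2 had 7, 1 and 30 counts in the control and 0 in every knockout library. Taking 3 counts for the knockout group gives a 12.7-fold lower level. Sohlh2 had 16 counts in C3 alone, and Tex19.1 had 3 and 6 in C1 and C2 alone. Piwil4 and Majin, also untested, were separated in the higher direction, at 0.422 CPM or less in every library. These untested genes were chosen for mention after their values were seen. Zar1, an oocyte RNA-binding protein, had 0 counts in the control and 79, 50 and 26 in the knockout libraries, at least 51.5-fold higher (edgeR adjusted p = 0.0111). Tdrd5, a Tudor domain protein of spermatogenesis, had 1 control count, in C2, and 41, 28 and 45 counts in the knockout libraries, a ratio of 114 (95% counting interval 19.97 to 4524; edgeR adjusted p = 0.00982). Cpeb1, which controls polyadenylation of maternal messages in oocytes, had 1 control count, in C2, and 56, 9 and 43 counts, a ratio of 108 (18.9 to 4288; edgeR adjusted p = 0.0176). As with Mei1, each rose from almost no RNA, to a mean of 1.27 to 2.05 CPM. Zar1 kept its call without any 1 library, Tdrd5 lost it without C3 (edgeR adjusted p = 0.0502), and Cpeb1 without C1, C3 or K3 (0.0616, 0.0808 and 0.0572) and with the replicate block (0.0521). With replicates 1 and 2 alone Zar1 alone was called (edgeR adjusted p = 0.0440). Such intervals cover counting error only. The floors allow for counting error in the group without counts alone and take the counts of the other group as exact.

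Mnd1, a partner of the meiotic recombinase Dmc1, had 17.3, 13.02 and 17.96 CPM in the control and 6.16, 8.29 and 8.51 CPM in the knockout libraries (log2 fold change -1.07 ± 0.28, SE; edgeR adjusted p = 0.0443). The groups did not overlap, but the call was lost without any 1 library (edgeR adjusted p = 0.0629 to 0.160). In the same libraries 11 proliferation genes had a median log2 fold change of -0.62, all 11 below 0. None of the 11 was called, where 10.2% of all tested genes were. Their summed levels were 2528 to 4539 CPM in the control and 1735 to 2490 CPM in the knockout libraries. The part of these genes in the Mnd1 value was not tested. Spo11, the enzyme that makes meiotic breaks, had 345, 1007 and 2364 counts in K1, K2 and K3 and 410, 520 and 401 in the control libraries. Spo11 did not pass (edgeR adjusted p = 0.154), and it was chosen for mention after its values were seen, as the gene of the list that was called without K1, with replicates 2 and 3 alone and by DESeq2. Its log2 fold change was 1.44, and it was 0.88 without K3 and 0.74 with replicates 1 and 2 alone (edgeR adjusted p = 0.398 and 0.644).

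**Figure D5:**
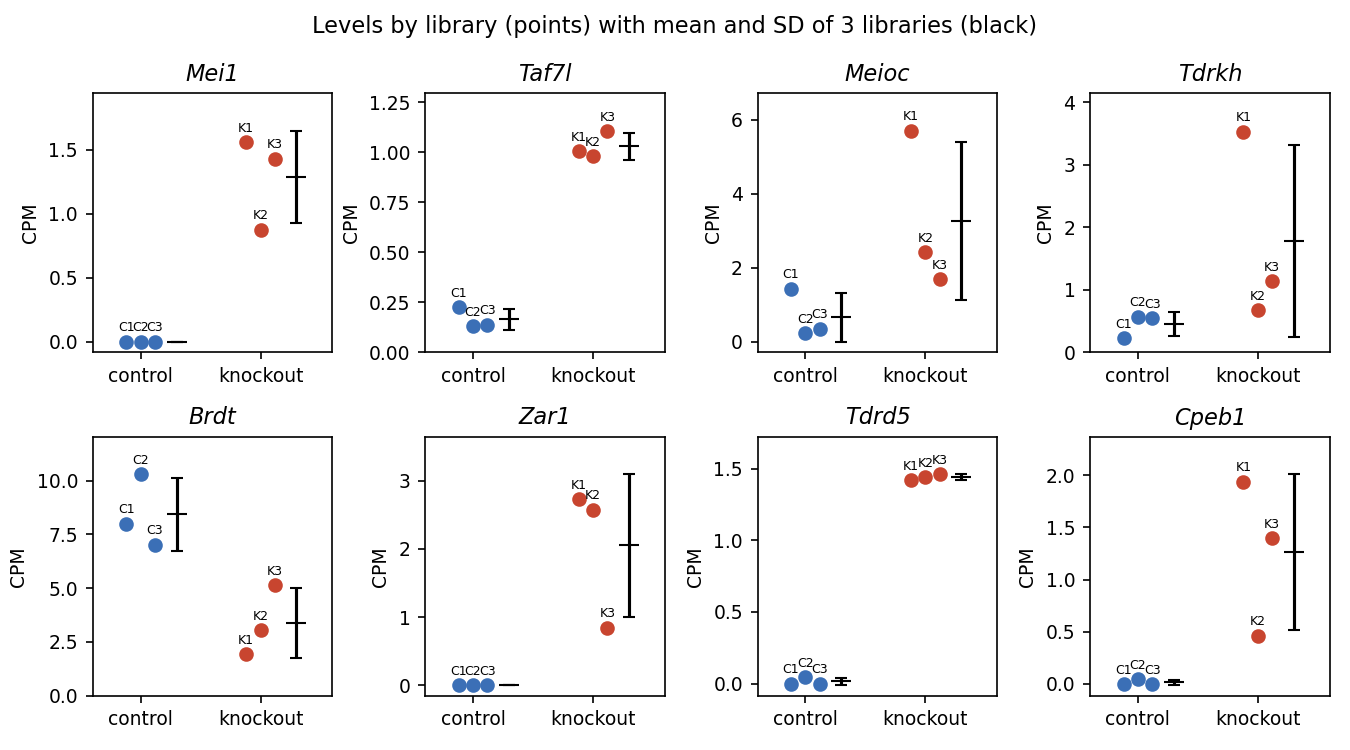
CPM by library (points, labelled) with the mean and SD of 3 libraries (black) for 8 genes. Mei1, Zar1, Tdrd5 and Cpeb1 go from 0 or 1 control count to knockout values of 0.463 to 2.73 CPM, Taf7l, Meioc and Tdrkh are separated by group without passing the test, and Brdt is lower in the knockout libraries without passing it.

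The subunits of the E2f6-containing variant PRC1 were expressed in all libraries. E2f6, Mga, Pcgf6, Dnmt1, Uhrf1 and Dnmt3b are named here beyond the rule for named genes, with their values known. Of 12 subunits 0 were called by edgeR, with 1 higher at an unadjusted p under 0.05, beside 10.2% and 14.5% of all tested genes. E2f6 had 36.0 to 46.4 CPM in the control and 44.3 to 57.8 CPM in the knockout libraries, and Mga 349 to 466 and 376 to 439 CPM. Pcgf6, the subunit that marks this complex, had 15.5 to 18.01 CPM in the control and 20.9 to 28.4 CPM in the knockout libraries (log2 fold change 0.60; edgeR adjusted p = 0.136). The maintenance DNA methyltransferase Dnmt1 had a log2 fold change of -0.38 and its partner Uhrf1 of -0.51, and neither passed (edgeR adjusted p = 0.273 and 0.180). These were the lowest values among 7 tested DNA methylation genes. The 7 had a median log2 fold change of -0.07, 6 below 0 and 1, Dnmt3b, at 0.61, and 0 were called.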

How the data were processed

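RNA was amplified from 10 ng with the Ovation RNA-seq System V2 and sequenced as single reads, per the labels' protocols. The deposited files hold raw counts per gene symbol; the submitters' processing notes name HTSeq 0.6.1, DESeq2 1.6.3, TopHat2 2.0.13, the build mm10 and Cufflinks 2.2.1 without assigning steps, and the annotation and strand setting are not given in the sources used here. All genes were fitted with edgeR 4.0.16 in R 4.3.3 (TMM, filterByExpr at its defaults of 10 counts, 15 in total, two-sided quasi-likelihood F test, no covariate), with Benjamini-Hochberg adjustment over 14890 genes and calls at an adjusted p under 0.05. Log2 fold changes are knockout minus control with a prior count of 0.125; 95% intervals use the model's SE and degrees of freedom. Positions and exon lengths are from GENCODE M21 (GRCm38). On simulated counts 11.0% of 82 genes changed 2-fold and 72.7% of 55 changed 4-fold were recovered. Alternatives were other scalings, filters, DESeq2 1.42.0, limma-voom 3.58.1, a replicate block, an Xist covariate, a GC and length offset and fewer libraries. By rule, full values were given for those of the 32 genes that were called or had a mean of at least 5 CPM. Genes of the 32 without a count in a group were given with counts and, above 3 counts, a bound. Counts were given for the rest, and other listed genes were named when called. Genes named outside this rule include E2f6, Mga, Pcgf6, Dnmt1, Uhrf1, Dnmt3b, Stra8, Prm1, Prm2, Zp3 and those marked above. The genes, lists and tests were chosen with earlier results of these data known.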

Additional observations from a re-analysis of the deposited data

How the results depend on the processing

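Beside 1512 called genes (70.6% higher), DESeq2 called 2535, the fit with Xist as covariate 817, replicates 1 and 2 alone 439, those of replicates 2 and 3 2694, and 811 to 1393 without any 1 library (811 without C3, 821 without K2, 995 without K3). The GC and length offset shifted the median of all genes by -0.14 (log2) and left 47.4% of calls higher. Of the 32 genes, the 1 called higher became 0 with at least 50 counts in 3 samples, where Mei1 was not tested, and 0 with replicates 1 and 2 alone; 2 with the offset; 3 with replicates 2 and 3 alone; 3 by DESeq2, which also called 1 lower; and 1 to 2 without any 1 library. Of the other germline genes, the 3 higher became 0 with the 50-count filter, 1 with replicates 1 and 2 alone and 1 to 4 without any 1 library, and the 1 lower (Mnd1) became 0 with library size alone, no count filter, the replicate block, the Xist covariate, the offset, either pair of replicates (1 and 2, or 2 and 3), and without any 1 library. Same-numbered libraries had correlated deviations of 0.169, 0.215 and 0.0739, and every library correlated best with its own number, a hint from the data only; the replicate block called 1451 genes and left Mei1 called. Signs turned for 5 of the 14 tested genes, none of them called: with replicates 1 and 2 alone Sycp3 was at -0.072, Smc1b at -0.067, Dmc1 at -0.097 and Zcwpw1 at -0.065, with replicates 2 and 3 alone Stag3 at 0.051, with the replicate block Zcwpw1 at -0.016 and by limma-voom Zcwpw1 at -0.067. Without any 1 library Sycp3 ran from -0.082 to 0.51, Smc1b from -0.66 to 2.77, Dmc1 from -0.35 to 0.85 and Zcwpw1 from -0.47 to 0.23. The cause of these moves was not tested. The 18 untested genes had at most 22 counts in a library, too few here for the test.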

Other observations

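Late germ cell genes were also examined. Of 12 spermatid genes 3 were tested and 1 was called higher, beside 7.17% of all tested genes. The other 9 were below the count filter. Acr, the protease of the sperm acrosome, passed that filter through its knockout counts. It rose from 3, 5 and 2 counts in C1, C2 and C3 to 51, 23 and 41 in K1, K2 and K3 (log2 fold change 3.40 ± 0.80, SE; edgeR adjusted p = 0.0305). The Acr call was lost without any 1 library (edgeR adjusted p = 0.0682 to 0.130), with replicates 1 and 2 alone (0.240) or 2 and 3 alone (0.0596), with the replicate block (0.0673) and with Xist as a covariate (0.0821). The protamine genes Prm1 and Prm2, which package sperm DNA, had at most 5 counts in a library. Of 10 oocyte genes 1 was tested and 0 were called by edgeR, also at an unadjusted p under 0.05, and Zp3, a protein of the egg coat, had no count. Zar1 and Cpeb1, described above with roles in oocytes and called higher, are not among these 10.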
